A study of Homo sapiens with 6 samples.

Results

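The EHF locus on human chromosome 11 (band p13) was described in Calu-3, an established airway epithelial cell line from a lung adenocarcinoma. The locus was taken as the hg19 window from 34450000 to 35050000, a stretch of 600 kb that holds ELF5, EHF, APIP and PDHX, and its members were all called intervals that touch this window. There were 68 such intervals among the 73341 of 4 lists. They were 27 of 34638 regions of H3K27ac, 36 of 31950 regions of H3K4me1, 1 of 1537 peaks of EHF replicate 1 and 4 of 5216 peaks of EHF replicate 2. Chromatin immunoprecipitation with sequencing (ChIP-seq) had been done once for each histone mark and in 2 replicate libraries for EHF, all on cells grown in low-glucose medium with serum and with no treatment named in the labels. The libraries held 8418631 to 21426939 tags. An input library served both EHF libraries and a second served both marks; neither input was used here. No group was compared with another, since each mark has 1 library and the EHF replicates share 1 condition. The values below are therefore descriptions, set beside the same measure over the whole list.

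EHF (gene identifier 26298) and ELF5 (2001) are neighbouring paralogs of the ETS family of transcription factors, in the subgroup that is restricted to epithelia. ETS proteins bind DNA through a domain that reads a short GGAA core. EHF acts in airway, intestinal and other barrier epithelia, and ELF5 is best known from the mammary gland, the placenta and lung progenitors. APIP (51074) encodes an enzyme of the methionine salvage pathway that also inhibits apoptosis, and PDHX (8050) encodes a structural subunit of the mitochondrial pyruvate dehydrogenase complex. The stretch between EHF and APIP is known from association studies as a modifier of lung disease severity in cystic fibrosis. H3K27ac is found at active promoters and enhancers, and H3K4me1 is found at enhancers and beside active promoters.

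The gene limits were known to 1 kb. They were 34500000 to 34535000 for ELF5, 34643000 to 34685000 for EHF, 34875000 to 34938000 for APIP and 34938000 to 35018000 for PDHX. In the RefSeq promoter table ELF5 and APIP lie on the minus strand and EHF and PDHX on the plus strand. Both pairs thus run away from each other, ELF5 and EHF from starts 108 kb apart and APIP and PDHX from a common start at 34938000. APIP is 34085 bp long in RefSeq on GRCh38.p14, against the 63 kb taken here, so the end of APIP nearest to EHF is uncertain. The RefSeq table lists CAT, which encodes catalase, as the gene before ELF5, and the lncRNA gene LINC02707 between ELF5 and EHF. Between EHF and APIP it lists 4 entries, which are 3 lncRNA genes and 1 pseudogene, with no protein-coding gene. This order is by the lowest coordinate of each entry alone, so an entry may overlap a gene listed beside it.

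The promoters of all 4 genes were matched in RefSeq (GRCh38.p14), each as 300 bases from 250 before a start to 50 after it. These RefSeq starts need not be the starts taken above, at which the marks were read. Their sequences therefore cannot be paired with the marks at those starts. Capitals mark the ETS core GGAA or its reverse complement TTCC, and each sequence runs 5′ to 3′ along its gene. EHF has 2 promoters in the table, 8309 bp apart, and for PDHX the one of 2 that shares more bases with the APIP promoter is shown.
EHF, first start, chr11:34624007-34624306, plus strand: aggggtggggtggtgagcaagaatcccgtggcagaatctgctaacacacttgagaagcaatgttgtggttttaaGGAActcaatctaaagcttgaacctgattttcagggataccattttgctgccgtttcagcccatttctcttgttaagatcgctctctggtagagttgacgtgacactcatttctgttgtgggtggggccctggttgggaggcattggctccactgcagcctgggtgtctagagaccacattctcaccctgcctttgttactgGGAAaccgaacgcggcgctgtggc
EHF, second start, chr11:34632316-34632615, plus strand: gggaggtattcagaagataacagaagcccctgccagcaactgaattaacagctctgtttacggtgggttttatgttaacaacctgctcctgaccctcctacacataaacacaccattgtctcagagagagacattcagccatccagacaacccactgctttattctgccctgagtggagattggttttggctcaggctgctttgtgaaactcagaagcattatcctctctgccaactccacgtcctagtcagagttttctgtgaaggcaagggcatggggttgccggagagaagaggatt
ELF5, chr11:34511675-34511974, minus strand: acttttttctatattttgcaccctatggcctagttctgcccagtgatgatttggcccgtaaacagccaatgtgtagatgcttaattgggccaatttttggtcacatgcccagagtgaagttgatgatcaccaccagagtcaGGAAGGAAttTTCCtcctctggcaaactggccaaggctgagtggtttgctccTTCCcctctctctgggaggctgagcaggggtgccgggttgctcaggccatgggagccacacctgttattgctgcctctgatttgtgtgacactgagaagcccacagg
APIP, chr11:34916330-34916629, minus strand: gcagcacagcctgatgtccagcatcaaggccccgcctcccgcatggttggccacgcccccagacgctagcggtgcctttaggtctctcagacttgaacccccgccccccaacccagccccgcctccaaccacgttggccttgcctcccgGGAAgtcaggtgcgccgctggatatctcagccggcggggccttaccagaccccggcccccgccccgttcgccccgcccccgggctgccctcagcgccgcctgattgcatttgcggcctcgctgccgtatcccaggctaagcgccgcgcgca
PDHX, chr11:34916368-34916667, plus strand: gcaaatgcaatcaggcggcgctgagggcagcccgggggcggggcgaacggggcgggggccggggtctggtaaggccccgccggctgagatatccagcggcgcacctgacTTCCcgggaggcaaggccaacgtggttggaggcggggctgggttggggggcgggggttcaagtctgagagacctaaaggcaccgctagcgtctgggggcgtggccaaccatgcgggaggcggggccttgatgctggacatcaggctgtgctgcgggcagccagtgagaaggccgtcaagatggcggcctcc

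The APIP and PDHX promoters shown share 262 bases, read from opposite strands, and these bases are identical as reverse complements. They are rich in CpG: APIP held 28 CpG dinucleotides and PDHX 24, against a median of 14 over the 35116 promoters of the table. The EHF promoters held 8 and 3 CpG, and the ELF5 promoter held 2. The GGAA core was found on either strand 4 times in the ELF5 promoter, where 2 matches adjoin, 2 times in the first EHF promoter and 0 times in the second. It was found once in APIP and once in the PDHX promoter shown, which is the same position of their shared bases. The PDHX promoter not shown, which shares 158 bases with that of APIP, held 3 GGAA matches and 33 CpG. A match to GGAA is common, since 95.5% of all promoters held at least 1 and the median was 3. The longer core CCGGAA, searched on both strands and always holding a GGAA, was in none of the promoters of the 4 genes and in 17.2% of all promoters. These windows are on another build than the called intervals, so no interval was placed on them.

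The locus as a whole was dense in both marks. H3K27ac regions covered 85.6 kb, or 14.3% of its bases, and H3K4me1 regions covered 31.7 kb, or 5.28%. When the chromosomes were tiled with windows of 600 kb, so that the locus was 1 of 4181 windows with any interval, the median window had 1.78% under H3K27ac and 0.554% under H3K4me1. Only 24 windows, the locus included (0.574%), had at least as much H3K27ac, and 35 (0.837%) at least as much H3K4me1. The same held for the number of regions, with 2.10% of windows at or above the 27 H3K27ac regions and 0.813% at or above the 36 H3K4me1 regions. For EHF the locus was less far from the rest. The single peak of replicate 1 was reached by 25.1% of windows and the 4 peaks of replicate 2 by 10.00%. The windows were laid so that the locus filled 1 of them exactly, whereas dense stretches elsewhere can be divided between windows.

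**Figure D1:**
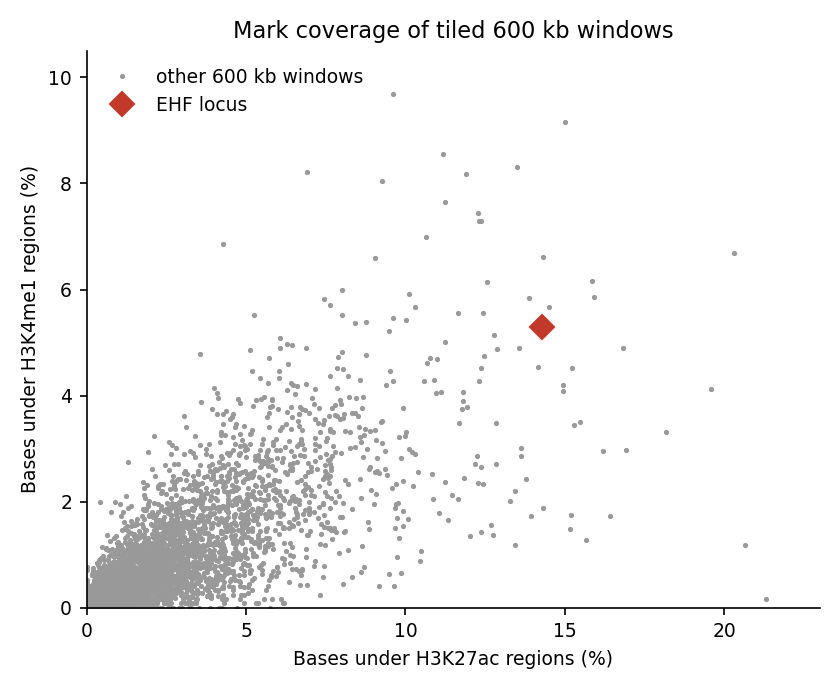
Each grey point is a tiled window of 600 kb, with the share of its bases under H3K27ac regions (x axis, percent) and under H3K4me1 regions (y axis, percent), and the red diamond is the EHF locus. The locus, at 14.3% and 5.28%, lies far above the medians of 1.78% and 0.554%.

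The intervals were unevenly spread along the locus. Most of the mark regions lay around EHF, in the stretch before APIP, and from the APIP and PDHX start to beyond the PDHX end. No interval of any list lay in ELF5.

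**Figure D2:**
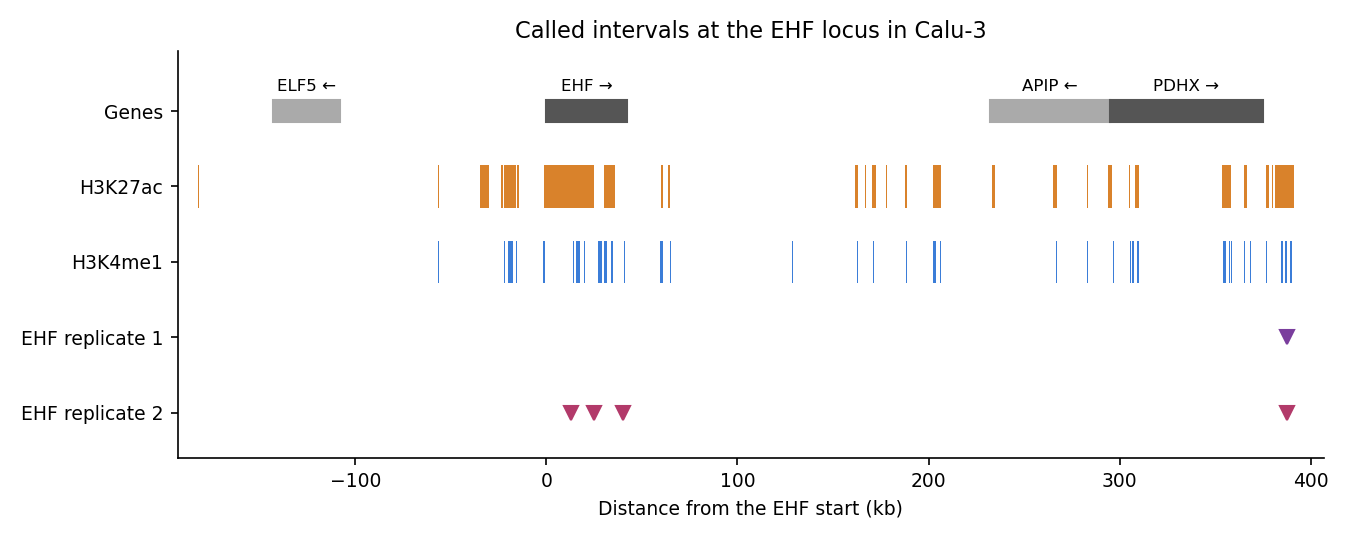
The map shows the called intervals of the 4 lists against the distance from the EHF start (x axis, kb), with mark regions drawn to scale as bars, EHF peaks as triangles, and genes as boxes with an arrow for their direction. H3K27ac is broadest over EHF, both marks are missing over ELF5, and 3 of the 4 EHF peaks of replicate 2 lie in EHF.

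The starts of EHF, APIP and PDHX were in H3K27ac regions and that of ELF5 was not. The EHF start lay in the region chr11:34641593-34667788, which has a width of 26196 bp and a score of 1799. The score is the authors' normalized tag count, the number of tags in an interval after scaling the library to 10000000 tags. The common start of APIP and PDHX lay in the region chr11:34936838-34939105, which is 2268 bp wide and has a score of 128. The nearest H3K27ac region to the ELF5 start was 51.28 kb away on the EHF side, at chr11:34586283-34586910, with a width of 628 bp and a score of 14. Distances of 1 kb, 2 kb or 5 kb from a start all gave 3 marked starts of 4. This count could not change, since the marked starts lay inside a region and that of ELF5 was 51.28 kb from its nearest. APIP and PDHX are counted in it with the same start and the same region.

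H3K4me1 lay beside the marked starts and not on them. The nearest H3K4me1 region to the EHF start, chr11:34641291-34642207, ended 793 bp before it, with a score of 30, and 67.1% of its bases were under the long H3K27ac region. At the APIP and PDHX start the nearest, chr11:34939667-34940167, began 1667 bp into PDHX, with a score of 11, and lay 562 bp outside the H3K27ac region. At ELF5 the nearest H3K4me1 region was 51.44 kb from the start. The starts are known to 1 kb only, so the order of mark and start within that distance is uncertain. Within 2 kb of a start, 3 of the 4 genes had H3K4me1, but within 1 kb only EHF did.

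**Figure D3:**
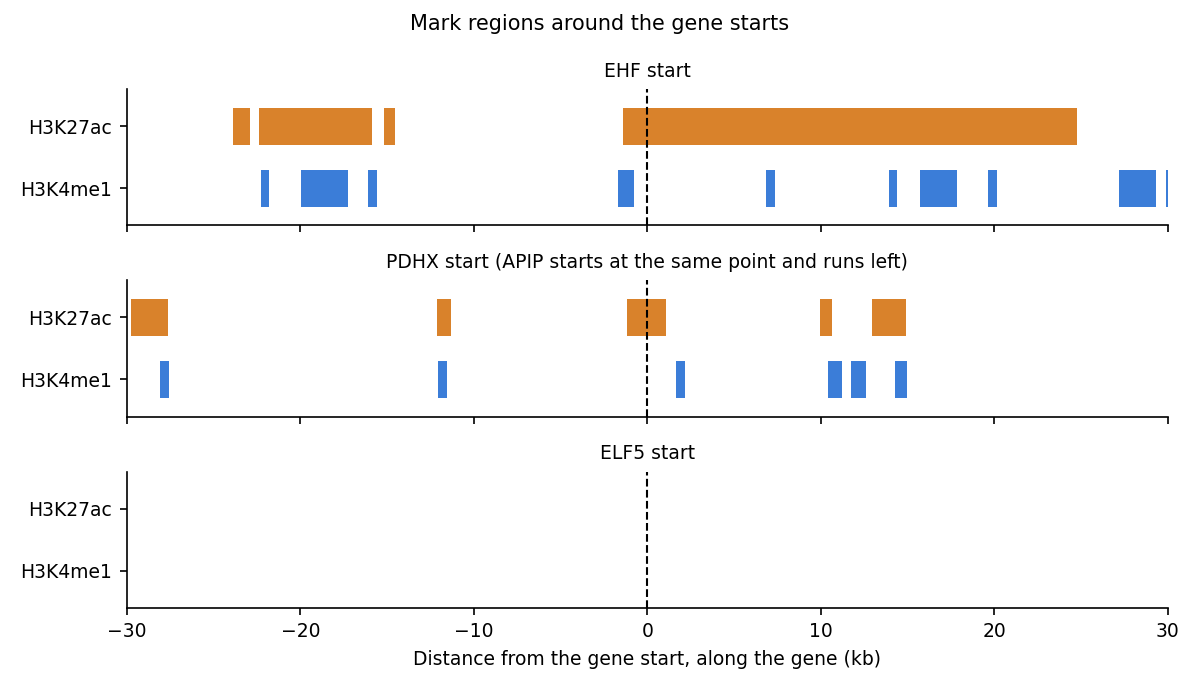
Each panel shows the H3K27ac and H3K4me1 regions (rows) within 30 kb of a gene start, against the distance along the gene (x axis, kb, dashed line at the start). EHF and the shared APIP and PDHX start lie in H3K27ac regions of 26196 bp and 2268 bp, and the ELF5 panel is empty because its nearest region is 51.28 kb away.

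EHF itself carried the widest H3K27ac region of the locus, with the highest total score but not the highest score per kb. The region over its start began 1.4 kb before it and ran 24.8 kb into the gene, which is 59.0% of the gene. Only 14 of the 34638 H3K27ac regions of the whole list were wider and 41 had a higher score. It made up 30.6% of the bases under H3K27ac at the locus and 35.1% of the summed H3K27ac score. Further into EHF a second region, chr11:34673020-34679095, was 6076 bp wide with a score of 442. Per kb the 2 regions had scores of 68.7 and 72.7, above the median of 27.9 per kb over the whole list. Regions outside EHF reached 97.4, 80.4 and 73.3 per kb.

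Together these regions covered 73.5% of EHF. Of 21775 tiled windows of 42 kb, the length of EHF, with H3K27ac or an EHF peak of replicate 2, the median had 4.46% under H3K27ac and 18, EHF included (0.0827%), had at least as much as EHF. The tiles were laid so that EHF filled 1 of them exactly, whereas acetylated stretches elsewhere can be divided between tiles.

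H3K4me1 was patchy within EHF. There were 8 H3K4me1 regions with their centre in the gene, with scores of 9 to 49, and they covered 21.4% of it. The long H3K27ac region held 5 H3K4me1 regions, counting that before the start, which covered 16.2% of its bases. Between the 2 H3K27ac regions of EHF lay a gap of 5231 bp that was not empty of marks. The H3K4me1 region chr11:34670178-34672341, of 2164 bp and with a score of 49, lay wholly in it, and the next, chr11:34672888-34674941, also with a score of 49, began in it. The third of the longer ones in EHF, chr11:34658711-34660832, had a width of 2122 bp and a score of 46 and lay inside the long H3K27ac region. The last, chr11:34683412-34683912, lay near the end of the gene with a score of 9, outside H3K27ac.

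EHF peaks were called in EHF itself, but in replicate 2 only. The first, chr11:34655742-34655866, lay 12.8 kb into the gene, inside the long H3K27ac region and 1045 bp from the nearest H3K4me1 region, with a score of 13. The second, chr11:34668026-34668150, lay 25.1 kb into the gene with a score of 8, in the gap between the H3K27ac regions, 238 bp past the end of the long one. The third, chr11:34682918-34683042, lay 40 kb into the gene with a score of 10, and was 3823 bp from H3K27ac and 370 bp from H3K4me1. None of the 3 overlapped an H3K4me1 region. No EHF peak of either replicate lay at the EHF start taken here, and the nearest to it was the first of these. Distances to the other EHF starts in RefSeq were not computed, because their positions are on another build. The 2 EHF promoters in RefSeq lie 8309 bp apart, so the first peak may be nearer than 12.8 kb to a RefSeq start.

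These peaks rest on few tags. Undoing the scaling gives about 11, 7 and 8 tags in the order above, with exact 95% Poisson intervals of 5.49 to 19.7, 2.81 to 14.4 and 3.45 to 15.8, which cover counting error only. These counts are approximate, since a score need not equal the tags that the caller tested. Scores reach down to 6 in both EHF lists, against tag thresholds of 8 in replicate 1 and 7 in replicate 2. By score the first peak was among the upper 42.4% of the replicate 2 list and the second among the upper 97.4%, near its floor. Replicate 1 had no peak in EHF, and its nearest was 242.07 kb from the start. At such scores recurrence was rare everywhere: of the 3350 replicate 2 peaks with scores of 8 to 13, 273 were also in replicate 1 (8.15%, exact 95% interval 7.24% to 9.13%). The absence from replicate 1 is therefore not a result about EHF, and binding was not shown in both replicates. A window of 42 kb with at least 3 peaks of replicate 2 was uncommon, at 96 of the 21775 tiles (0.441%). These are the tiles laid to fit EHF, whereas groups of peaks elsewhere can be divided between tiles. The count does not replace the missing recurrence in replicate 1.

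**Figure D4:**
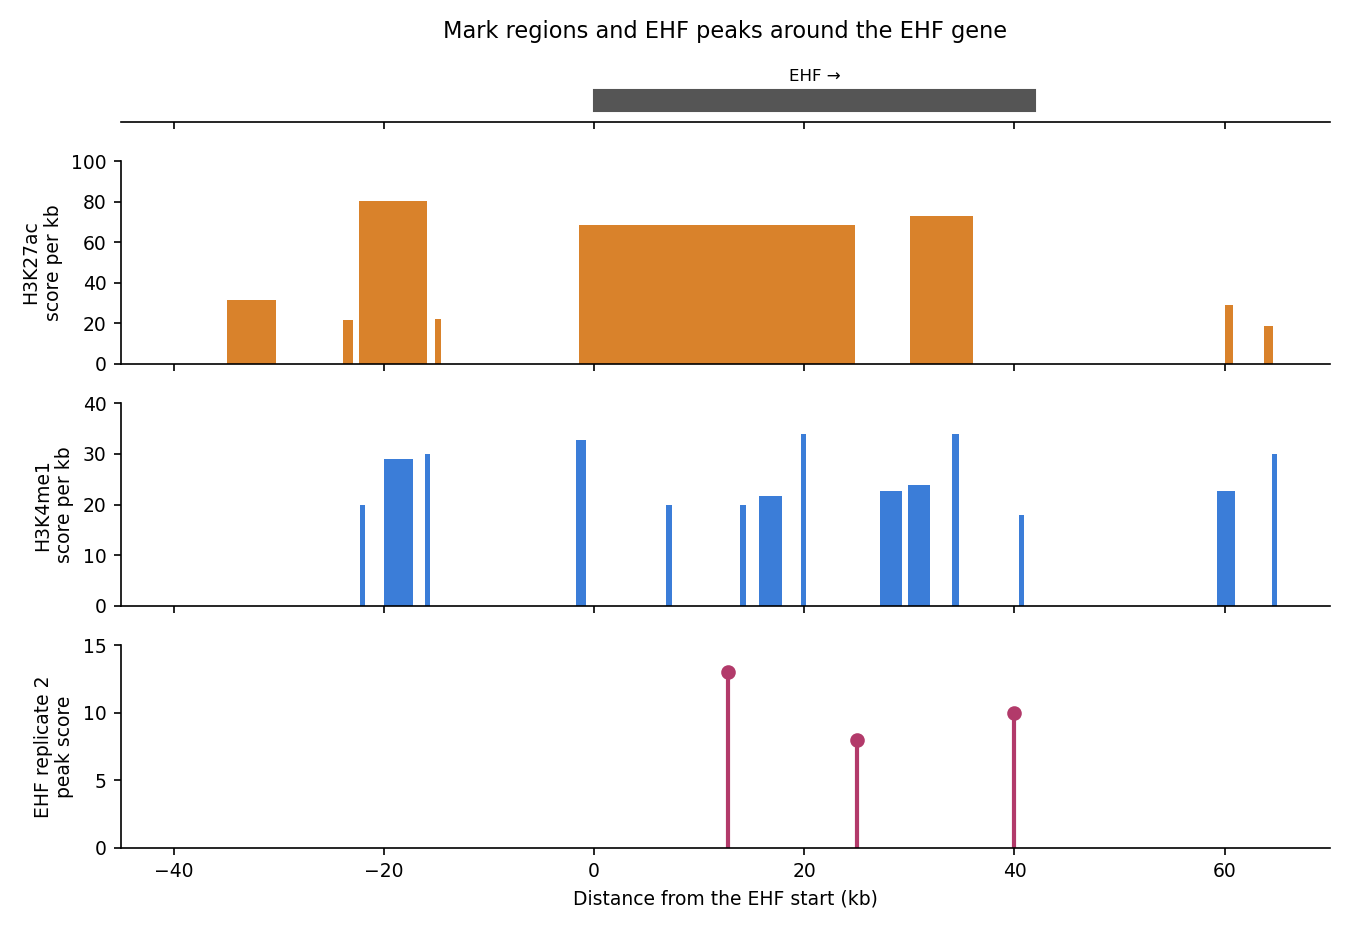
The upper panels show the EHF gene and the H3K27ac and H3K4me1 regions around it as blocks to scale, with the score per kb as height, and the lowest panel shows the score of each EHF peak of replicate 2, all against the distance from the EHF start (x axis, kb). H3K27ac blocks reach 68.7 and 72.7 per kb in the gene and 80.4 per kb before it, and the 3 EHF peaks, with scores of 13, 8 and 10, lie from 12.8 to 40 kb into the gene.

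Upstream of EHF a second group of H3K27ac regions lay in the part of the ELF5 to EHF stretch next to EHF. The main region, chr11:34620603-34627147, ended 15.9 kb before the EHF start. It was 6545 bp wide with a score of 526, rank 608 of the list, and 80.4 per kb. It held 3 H3K4me1 regions that covered 53.5% of it, among them chr11:34623013-34625765, which with 2753 bp and a score of 80 was both the longest and the highest-scoring H3K4me1 region of the locus. Farther out, the region chr11:34608048-34612729 had a width of 4682 bp and a score of 147, and lay 8 kb from the nearest H3K4me1 region. In all, 13.7% of the 108 kb between ELF5 and EHF was under H3K27ac and 4.79% under H3K4me1, and no EHF peak was called there.

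ELF5 had no interval in any of the 4 lists. It lay within the longest stretch of the locus without a mark region, chr11:34461076-34586282, which is 125.2 kb long and runs from 73.9 kb past the ELF5 start, beyond the end of the gene, to 51.3 kb before it. Such stretches were common in these lists. Of 52029 stretches between neighbouring mark regions 4862 (9.34%) were as long, and they made up 64.0% of the bases outside mark regions. The lists hold only intervals above the callers' thresholds, so signal below them at ELF5 was not examined. The stretch ended on the CAT side at the H3K27ac region chr11:34460450-34461075, the only interval before ELF5, with a width of 626 bp and a score of 28.

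Between EHF and APIP, the modifier stretch of 190 kb held 8 H3K27ac and 8 H3K4me1 regions, which covered 6.15% and 3.35% of its bases. Its length, counts and shares depend on the 63 kb taken for APIP. At the RefSeq length of 34085 bp it would be longer and would also hold the H3K27ac region chr11:34876003-34877614, with a score of 60. It began with 2 small H3K27ac regions, 18.1 and 21.8 kb past the end of EHF, with scores of 22 and 16, each overlapping H3K4me1. Then followed 97.0 kb without H3K27ac, in which the sole interval that lay wholly inside was an H3K4me1 region of score 11, chr11:34771556-34772056, 32.6 kb from the next H3K27ac region. The other 6 H3K27ac regions lay in the part next to APIP. The strongest was chr11:34845284-34849768, which lay 88.2 kb from the APIP and PDHX start. It was 4485 bp wide with a score of 437, and its 97.4 per kb was the highest of the locus and rank 433 of the 34638. It held 2 H3K4me1 regions, with scores of 45 and 12, which covered 46.9% of it. No EHF peak of either replicate lay in the 190 kb.

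APIP held 4 H3K27ac regions, counting that over the shared start, and 2 H3K4me1 regions. The marks covered 9.01% and 1.59% of the span taken for it. The region chr11:34876003-34877614, with a score of 60 and no H3K4me1, lay 60.4 kb from the APIP start, which is farther than the RefSeq length of 34085 bp, so whether it is in APIP depends on the gene model. The region chr11:34908256-34910354, with a score of 64, lay 27.6 kb from the start, within either length, and overlapped an H3K4me1 region of score 12. The smallest of the 4, of 802 bp and with a score of 18, lay 11.3 kb from the start.

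PDHX had 4 further H3K27ac regions with their centre in the gene and 9 H3K4me1 regions, and with its part of the start region the marks covered 12.0% and 7.95% of its 80 kb. The largest, chr11:34996888-35001134, lay 58.9 kb into the gene, with a width of 4247 bp, a score of 256 and 2 H3K4me1 regions over 49.5% of it. The others had scores of 15, 85 and 52, each overlapped an H3K4me1 region, and no EHF peak lay in PDHX. The start region, unlike these 4, overlapped no H3K4me1. Its score of 56.4 per kb lay within the range of the 4, the largest of which had 60.3 per kb.

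Past the end of PDHX lay the only EHF site of the locus that was called in both replicates. The peak of replicate 1, chr11:35030675-35030825, had a score of 8, and that of replicate 2, chr11:35030733-35030857, a score of 10. Their centres lay 45 bp apart, 12.8 kb beyond PDHX. Both rest on about 8 tags (exact 95% Poisson interval 3.45 to 15.8, counting error only). They are weak in their lists, among the upper 92.5% by score in replicate 1 and the upper 86.0% in replicate 2. Of the replicate 2 list 14.7% of peaks recurred in replicate 1, so 1 in 4 at the locus is a count too small to set apart from it. The site lay inside the H3K27ac region chr11:35024387-35034261, of 9875 bp and with a score of 724, the second widest and second highest of the locus, with rank 316 by width and 327 by score in the list. This region held 3 H3K4me1 regions, with scores of 37, 29 and 28. The peaks lay between the second and the third of them, 35 bp and 93 bp past the end of the second, with no base in common. In RefSeq the entries listed after PDHX are, in order, MIR1343, LOC105376626, LOC105376627, CD44-DT and CD44, of which only the last is protein-coding. They are ordered by their lowest coordinate and were not compared with the PDHX end, so an entry listed after PDHX may lie within it. CD44 encodes a cell-surface adhesion receptor.

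Counting both replicates, the locus had 4 EHF sites, of which 2 were inside H3K27ac, as were 63.8% of all replicate 2 peaks and 60.8% of all replicate 1 peaks. None overlapped H3K4me1, against 7.98% and 10.1% of all peaks of replicates 2 and 1. With 4 sites neither share can be set apart from the list. Counted by region, 2 of the 27 H3K27ac regions held a peak of replicate 2 and 1 held a peak of replicate 1, against 8.99% and 2.65% of all H3K27ac regions. Without replicate 2 the sites fell to 1.

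The 2 marks met more often at the locus than over the lists. Of the 27 H3K27ac regions 18 overlapped H3K4me1, or 66.7% (exact 95% interval 46.0% to 83.5%), against 34.5% of the whole list. Of the 36 H3K4me1 regions 29 overlapped H3K27ac, or 80.6% (64.0% to 91.8%), against 45.2%. By bases, 27.2% of the H3K27ac and 73.6% of the H3K4me1 at the locus carried both, against 15.3% and 42.1%. Neighbouring regions are not independent, the intervals cover counting error only, and no test was made. The 18 regions with H3K4me1 had a median width of 2009 bp and a median score of 65.5, and the 9 without it 632 bp and 20. The region over the APIP and PDHX start and that of 4682 bp upstream of EHF were among the 9. The parts that width and the density of both marks at the locus had in these shares were not tested. With intervals at or above the median score of their list only, 8 of 16 H3K27ac regions (50%) and 14 of 20 H3K4me1 regions (70%) overlapped the other mark. The whole-list shares at that minimum were not computed.

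**Figure D5:**
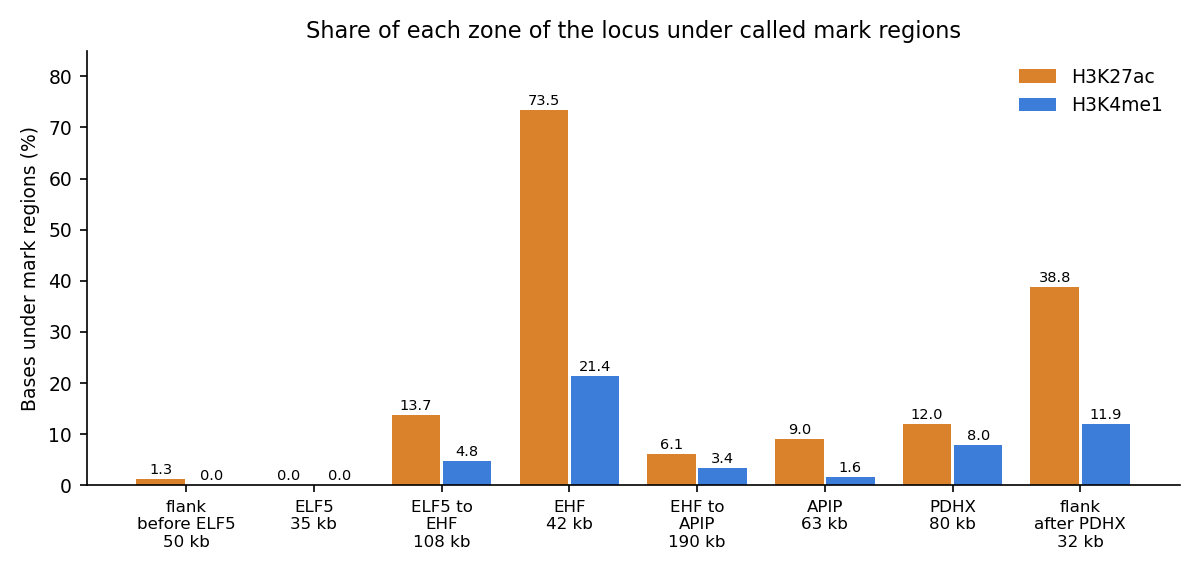
Bars give the share of bases under H3K27ac and H3K4me1 regions (y axis, percent, from 0) in each of 8 zones of the locus, with zone lengths in kb. EHF leads with 73.5% and 21.4%, the flank after PDHX follows with 38.8% and 11.9%, and ELF5 has 0 of both.

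Divided by zones, EHF and the 32 kb after PDHX had the largest shares of bases under each mark. EHF held 43.7% of the summed H3K27ac score of the locus by region centre and 26.8% of the H3K4me1 score. Of the H3K4me1 score a further 20.5% lay in the modifier stretch, 18.9% in the ELF5 to EHF stretch, 18.1% in PDHX, 13.0% in the flank after PDHX and 2.78% in APIP. The flank after PDHX had 38.8% of its bases under H3K27ac and 15.6% of the H3K27ac score, and the ELF5 to EHF stretch had 14.1% of that score. The modifier stretch held 12.8% of the H3K27ac score, PDHX 7.96% and APIP 5.27%. The APIP share counts the whole score of 128 of the region over the common start, although that region spans both genes. It also counts the region of score 60, which lies in APIP only at the span taken here. The shares of APIP, PDHX and the modifier stretch thus depend on how these regions are assigned. Within the locus H3K27ac regions ranged in score from 8 to 1799, with a median of 52 against 38 over the whole list, and in width from 501 to 26196 bp. H3K4me1 regions ranged in score from 9 to 80, with a median of 15 against 14, and 21 of the 36 had the smallest width of 501 bp.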

How the data were processed

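ChIP-seq of Calu-3 cells gave 4 deposited interval lists. Per the file headers, HOMER findPeaks was run on 1 library at a time, with its factor style on EHF and its histone style on both marks, at a false discovery rate of 0.01 and 4-fold over input and over the surrounding 10 kb. The tools were Bowtie 1.0.0 and HOMER 1.2 and the build hg19, per the submitters' processing notes. The authors' deposited score is the normalized tag count per interval, scaled to 10000000 tags and written as a whole number; it is not an enrichment over input. Mark windows of 500 bp were stitched into regions, so a region's width depends on stitching. Depth per the file headers was 10176290 and 8418631 tags for EHF replicates 1 and 2, 12989646 for H3K4me1 and 21426939 for H3K27ac. Whether the EHF replicates were separate cultures is not stated in the labels.

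Positions are hg19, counted from 1. Gene limits came with the definition of the locus, strands and promoter sequences from RefSeq on GRCh38.p14, and no coordinates were converted. Python 3.11.15, numpy 2.4.6 and scipy 1.17.1 were used, with overlaps of at least 1 bp; the counting was checked on simulated intervals. Shares have exact (Clopper-Pearson) 95% intervals. Named were the 4 genes, every EHF peak, the mark regions nearest each start, the 5 longest and 5 highest-scoring H3K27ac regions and the 3 highest per kb, the 3 longest and 3 highest-scoring H3K4me1 regions and the longest stretch without a mark. Other regions given by position were chosen after their values were seen. The members, lists and comparisons were chosen with earlier results of these data known. Alternatives varied the window, score minimum, stitching, overlap, start distance and EHF replicate. Markers of cell types were not analysed here, because the lists carry no gene names.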

Additional observations from a re-analysis of the deposited data

How the results depend on the processing

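Of 44 alternative values, 35 were classed as unchanged and 9 were not. Counts had to stay within 1.5 times, and shares within the exact 95% interval of the first value, taken for shares of bases over windows of 500 bp and not over bases. With intervals at or above the median score of their list only, the EHF sites fell from 4 to 1, those inside H3K27ac from 2 to 1, the H3K27ac regions from 27 to 16, the H3K4me1 regions from 36 to 20, the H3K4me1 share of bases from 5.28% to 3.95%, and the starts with H3K4me1 from 3 to 1. A start distance of 1 kb also left 1 start with H3K4me1. The score minimum is the median of each list, so it removes many intervals of every list by definition. Lower counts under it were therefore built in and do not set the locus apart. Leaving out 1 EHF replicate gave 1 to 4 EHF sites and 1 to 2 inside H3K27ac, the lower values without replicate 2. Leaving out replicate 1 could change neither, because its only peak at the locus overlaps a peak of replicate 2. Joining mark regions across gaps of up to 1000 bp could not change the H3K27ac share of the modifier stretch, where the shortest gap between H3K27ac regions is 2931 bp. The 35 unchanged values thus include some that could not have changed. The number of starts with H3K27ac was 3 under each alternative, which the start distances could not change, and APIP and PDHX share a start and a region in it. Each EHF peak rests on about 7 to 11 tags, which limits its precision. No paired analysis was possible because only EHF has numbered libraries and no groups were compared.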

Other observations

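Just outside the window, EHF was called in both replicates on either side. The site on the CAT side had peaks at chr11:34400784-34400934 in replicate 1, with a score of 11, and at chr11:34400813-34400937 in replicate 2, with a score of 15. Their centres lay 16 bp apart, inside the H3K27ac region chr11:34400417-34402421 and at least 25136 bp from H3K4me1. The site on the CD44 side had peaks at chr11:35099434-35099584, with a score of 11, and chr11:35099476-35099600, with a score of 13. Their centres lay 29 bp apart, inside the H3K27ac region chr11:35098315-35100486, and the nearest H3K4me1 region was 4717 bp away. Both sites scored higher in both replicates than the shared site past PDHX, at 8 and 10. These sites were noted after the values of the locus had been seen.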
